A study of Canis lupus familiaris with 27 samples.

Results

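The collagen genes outside cartilage were described in 27 simple mammary carcinomas of female dogs, 13 with metastases in the draining lymph node at resection (metastatic) and 14 without (non-metastatic). A gene was a member when its symbol on the array had the form of a collagen chain (COL, a number, A, a number). COL2A1, COL9A1 and COL10A1, which are chains typical of cartilage, were left out. No other chain was left out for being made in cartilage. The rule found 33 genes of the 15115 that a probe set names alone, and each was read from its probe set of highest mean over the tumors. Every tumor was a frozen, macrodissected specimen with a carcinoma cell content above the minimum set by the study, from a dog of 9 to 16 years, and every tumor was negative for the estrogen receptor by its label. The metastatic tumors comprised 6 of grade II and 7 of grade III and measured 0.5 to 5 cm, the non-metastatic tumors 5 of grade II and 9 of grade III and 2 to 15 cm. The non-metastatic tumors had been selected by the study to be large, so size and lymph node status are tied in the design. One array was hybridized per tumor, so each p-value measures the spread between dogs, and the number of arrays limits its precision. Tumors are numbered within their group in the order of deposition.

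Collagens are the main fibrous proteins of connective tissue and share a helix wound from chains that may be equal or different. Fibrillar types (I, III, V and their relatives) form the fibrils of the stroma, where fibroblasts make most of them. Type IV forms the sheet of the basement membrane under epithelium, endothelium and around smooth muscle, and the chains α1 and α2, α3 to α5 and α5 with α6 assemble in fixed combinations. Type VI forms beaded filaments around cells, the fibril-associated types with interrupted helices sit on the fibrils or near basement membranes, and the basement membrane zone types (VII, XV and XVII) anchor epithelium and vessels. In carcinomas of the mammary gland a dense collagen stroma is a familiar histologic feature. By these classes the 33 genes comprised 9 fibrillar, 6 basement membrane, 3 basement membrane zone, 3 beaded filament, 7 fibril-associated, 1 short-chain network, 3 transmembrane and 1 other gene.

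The values are log2 signals. Of the 33 genes 18 had a mean above 3.77, the median over all probe sets, and the other 15 lay below it, 11 of them never reaching a log2 signal of 6 in any tumor. Probe sets that dim may report no transcript, and their small differences are given only as counts. The tissue carried its epithelial label, with a mean log2 signal of 13.59 for EPCAM and 12.55 for KRT8. The arrays correlated pairwise with r of 0.911 to 0.993 over all probe sets. The closest pairs were non-metastatic tumors 3 and 5 (r = 0.993) and, across the groups, metastatic tumor 2 and non-metastatic tumor 4 (r = 0.991), and the difference of the only collagen gene called is therefore also given with the first pair averaged and without the second. Arrays of metastatic tumors had an upper quartile of 7.93 ± 0.04 (SD, n = 13), those of the others 7.75 ± 0.15 (SD, n = 14). The names of 11 of 13 metastatic and 0 of 14 non-metastatic samples end in the letter T, whose meaning is not given.

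Metastatic and non-metastatic tumors were compared to ask whether the collagen genes of the primary tumor differ with spread to the lymph node. Of the 33 genes 1 was lower in metastatic tumors, COL16A1, and 0 were higher (limma, Benjamini-Hochberg adjustment over 15115 genes, adjusted p under 0.05). At an unadjusted p under 0.05 there were 5, COL1A1 higher and COL12A1, COL16A1 and the dim COL25A1 and COL4A4 lower. At the same limit there were 5193 of all 15115 genes, 2817 higher and 2376 lower, a larger share than among the collagen genes. Of all genes tested 17.8% were called, 10.6% as higher and 7.27% as lower, so the share of collagen genes called was below that of all genes. The median difference of the 33 genes was -0.04 on the log2 scale and that of all genes -0.002. Among the 18 brighter collagen genes 9 differences were positive and 9 negative, with a median of -0.04, where the 8765 genes of the same brightness had a median of 0.18 and 1494 higher and 546 lower calls. With the median of every array set equal, the calls over all genes moved from 1595 higher and 1099 lower to 1828 higher and 638 lower, with COL16A1 still the collagen gene called. In these bulk samples fewer cells of a type and less RNA per cell cannot be told apart.

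**Figure D1:**
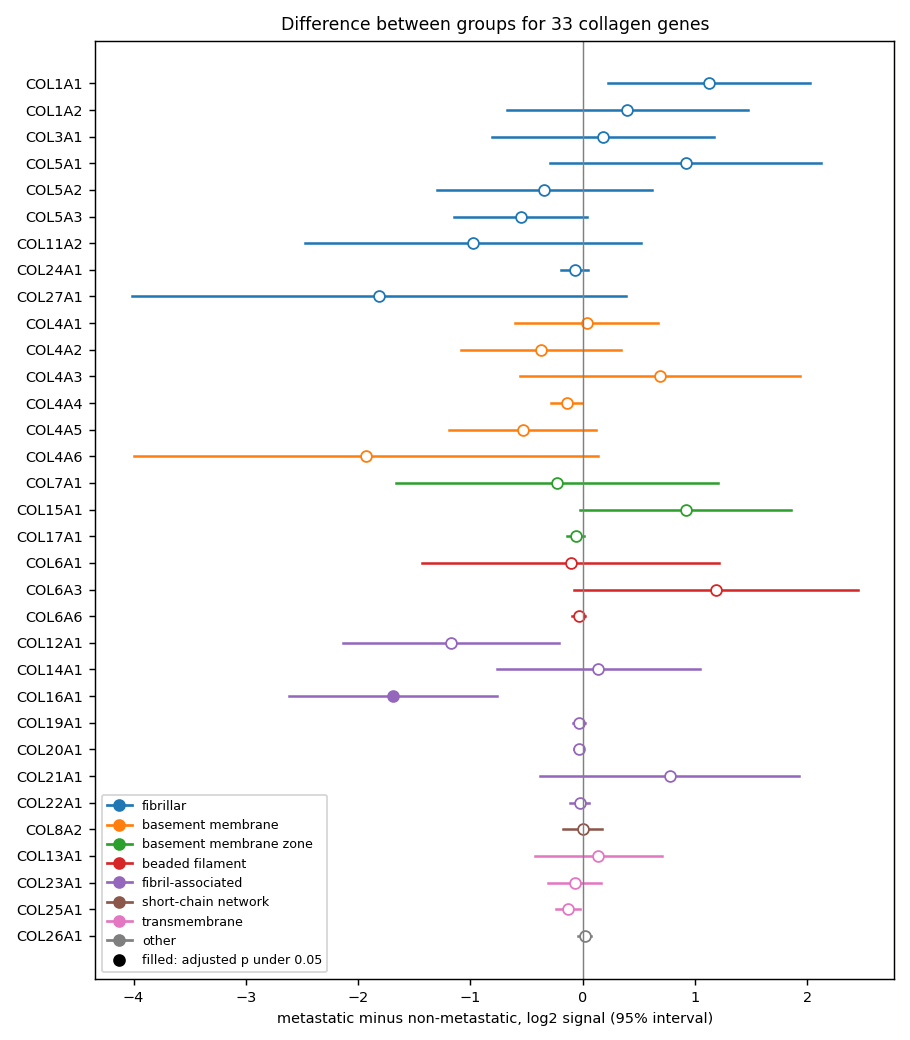
Difference of the mean log2 signal, metastatic minus non-metastatic, for each of the 33 collagen genes, grouped and coloured by class, with its 95% interval from limma. The filled point is COL16A1 (-1.69), the only gene with an adjusted p under 0.05, and the widest intervals belong to COL27A1 and COL4A6.

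COL16A1 encodes the chain of type XVI collagen, a fibril-associated collagen made by fibroblasts and smooth muscle cells. Its log2 signal in the metastatic tumors was lowest at 5.47 (tumor 13), had a median of 8.14 and was highest at 9.93 (tumor 1). In the non-metastatic tumors it ran from 7.57 (tumor 8) over a median of 9.52 to 12.14 (tumor 1). The groups overlapped, but 12 of 13 metastatic tumors lay below the non-metastatic median. The means were 8.13 ± 1.16 (SD, n = 13) and 9.82 ± 1.22 (SD, n = 14), a difference of -1.69 (SE 0.45, 95% interval -2.62 to -0.77, 3.23-fold lower, adjusted p = 0.0118). With non-metastatic tumors 3 and 5 averaged it was -1.63 (adjusted p = 0.0182), and without metastatic tumor 2 and non-metastatic tumor 4 it was -1.76 (adjusted p = 0.0145). Leaving out each of the 27 tumors in turn gave -1.86 to -1.47, each with an adjusted p under 0.05. The reading rests on 1 probe set, since the 2 others of the gene had mean log2 signals of 2.32 and 2.13.

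Several markers of smooth muscle and myoepithelium were also lower in metastatic tumors. A correlation with COL16A1 across the tumors was computed for MYH11 alone, and the other markers were not examined in this way. Of 12 such genes measured 6 were lower and 0 higher in metastatic tumors, led by MYLK (-2.47), MYH11 (-3.88) and ACTG2 (-2.14), and their mean log2 signal ran from 7.26 to 9.64 in metastatic and from 8.13 to 10.78 in non-metastatic tumors. With that mean as a covariate the difference of COL16A1 was -0.97 (adjusted p = 0.296, limma). With tumor size as a covariate it was -1.43 (adjusted p = 0.135), and blocking on whether the name ends in T, which leaves 2 metastatic tumors to compare with the others, gave -0.78 (adjusted p = 0.688). The losses are not particular to COL16A1. Over all genes the calls fell from 2694 to 229 with the marker mean, 478 with size and 10 with the name ending. Across the 27 tumors COL16A1 and MYH11, the smooth muscle myosin heavy chain, correlated with r = 0.573 (permutation p = 0.00177, adjusted 0.00310) and rho = 0.483 (p = 0.0119, adjusted 0.0237). Within the groups r was 0.599 in metastatic and -0.01 in non-metastatic tumors, it fell to 0.206 in the metastatic group without tumor 13, and over all tumors it was 0.413 without the 2 farthest from the COL16A1 median. What part these cells have in the COL16A1 difference was not tested beyond these values.

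The fibrillar class was measured in 9 genes, of which 0 were called by limma and 1 had an unadjusted p under 0.05. COL1A1, the α1 chain of type I collagen, had a lowest, median and highest log2 signal of 12.81, 14.62 and 15.81 in the metastatic group and of 9.96, 13.76 and 16.43 in the other. All but 2 of the 13 metastatic tumors lay above the non-metastatic median, although the highest value belonged to non-metastatic tumor 12. By grade, size and age that tumor matches a single dog of the study, free of lymph node metastases at resection. The study reports that this dog later developed lung metastases, and that its tumor clustered with the metastatic ones. The difference was 1.13 (SE 0.44, 2.18-fold, p = 0.0165) and did not pass the adjustment (adjusted p = 0.0736). Leaving out each of the 27 tumors in turn gave 0.85 to 1.35, with an adjusted p of up to 0.113, and 2 of these fits passed. They were the fits without metastatic tumor 13, the lowest of its group (1.28, adjusted p = 0.0450), and without non-metastatic tumor 12 (1.35, adjusted p = 0.0181). Dropping either of these tumors widens the difference.

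COL1A2, the partner chain α2, ran from 11.38 over a median of 14.01 to 15.96 in metastatic and from 9.43 over 13.68 to 15.70 in non-metastatic tumors. Its difference of 0.40 (SE 0.52, adjusted p = 0.606) was smaller than the spread within either group. COL3A1, which forms type III collagen alone, ran from 11.31 over 14.15 to 15.85 and from 10.46 over 13.80 to 15.52, and the groups covered nearly the same range. Its difference was 0.18 (SE 0.48, adjusted p = 0.810). The type V chains, which set the width of type I fibrils, had differences of opposite sign that were not called, 0.92 for COL5A1 (SE 0.59, adjusted p = 0.270) and -0.34 for COL5A2 (SE 0.47, adjusted p = 0.618). COL5A3, a further type V chain, COL11A2 and COL24A1 lay below the median brightness.

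COL27A1, a long fibrillar collagen, varied more across tumors than nearly all genes, with an SD of 2.93 that exceeded that of 99.5% of genes above the median brightness. It ran from 4.79 to 13.21 in metastatic and from 5.96 to 13.44 in non-metastatic tumors, above 6 in 9 of 13 and 13 of 14. The medians were 9.71 and 11.98, and the difference of -1.81 (SE 1.07, adjusted p = 0.232) was not called. COL11A2 stayed near 2 in most tumors but reached 6.36 in metastatic tumor 5 and 9.54, 6.84 and 6.38 in non-metastatic tumors 8, 10 and 11. COL11A2 is thus read from few tumors, and a group mean describes both genes poorly.

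**Figure D2:**
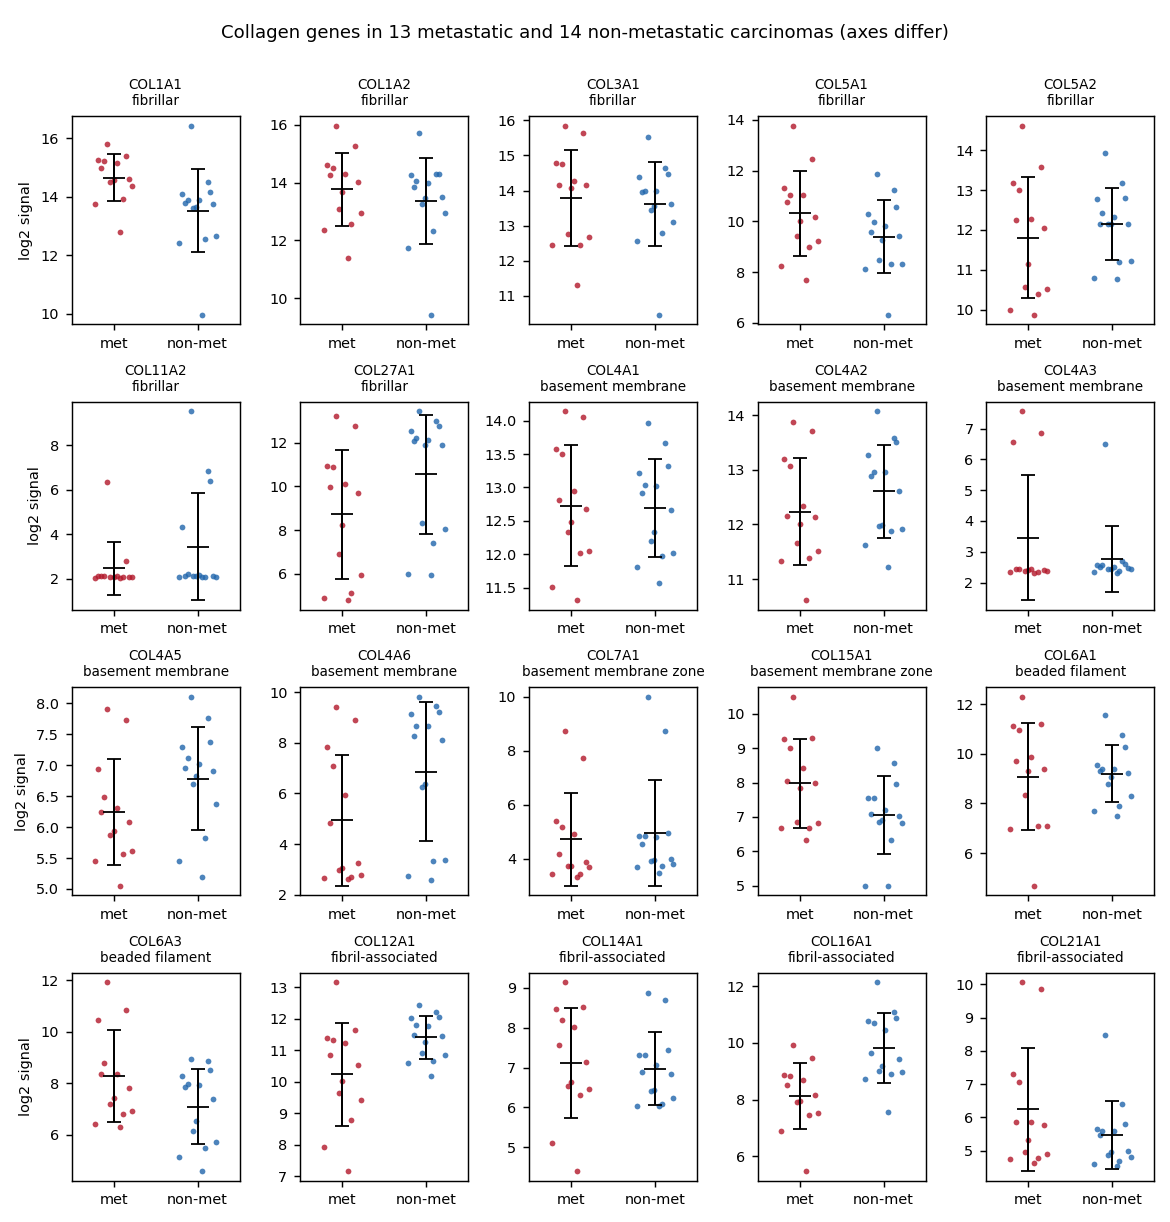
Log2 signal of 20 collagen genes in each of 13 metastatic (met, red) and 14 non-metastatic (non-met, blue) tumors, 1 point per tumor, with the mean and SD as bars. The panels hold the 18 genes above the median brightness and COL4A3 and COL11A2, which were added for their few high tumors, and the vertical axes differ between panels. COL16A1 sits lower in metastatic tumors with some overlap, and COL27A1 has the widest range of the panels, from 4.79 to 13.44.

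The basement membrane class had 6 genes and again 0 calls by limma, with 1 unadjusted p under 0.05 from the dim COL4A4. COL4A1, the α1 chain present in nearly all basement membranes, ran from 11.31 over a median of 12.68 to 14.14 in metastatic and from 11.57 over 12.79 to 13.96 in non-metastatic tumors. The difference was 0.03 (SE 0.31, 95% interval -0.60 to 0.67, adjusted p = 0.946). COL4A2, its partner, ran from 10.61 over 12.14 to 13.87 and from 11.22 over 12.75 to 14.07, with a difference of -0.37 (SE 0.35, adjusted p = 0.458). For both genes the difference between the groups was smaller than the spread between tumors.

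The α5 and α6 chains, found together around smooth muscle and in some epithelial basement membranes, had the more negative values of the class. COL4A5 differed by -0.53 (SE 0.32, adjusted p = 0.234) and COL4A6 by -1.93 (SE 1.01, adjusted p = 0.174), neither called. COL4A6 was above 6 in 4 of 13 metastatic and 10 of 14 non-metastatic tumors, with medians of 3.27 and 8.21 and a range of 2.58 to 9.82 over all tumors. COL4A3, known from the kidney filter and the lung, was at 7.56, 6.86 and 6.56 in metastatic tumors 2, 6 and 9 and at 6.49 in non-metastatic tumor 4, and below 3 in the other tumors. Metastatic tumor 2 and non-metastatic tumor 4 are the pair whose arrays resemble each other across the groups. COL4A4, its partner, stayed between 3.24 and 4.04 in every tumor.

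Of the basement membrane zone genes COL15A1, a collagen of vessels and muscle, differed by 0.92 (SE 0.46, adjusted p = 0.154). COL7A1, which forms the anchoring fibrils of epithelium, was above 6 in 2 tumors of each group and reached 10.00 in non-metastatic tumor 10, with a difference of -0.23 (SE 0.70, adjusted p = 0.836). COL17A1, a hemidesmosome component, did not leave the dim range in any tumor, with a highest value of 2.73. None of the 3 was called.

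Of the beaded filament genes COL6A3, the α3 chain of type VI collagen, ran from 6.29 over a median of 7.82 to 11.92 in metastatic and from 4.58 over 7.62 to 8.94 in non-metastatic tumors. The medians were close, and the mean difference of 1.19 (SE 0.62, adjusted p = 0.171) came with 3 metastatic tumors (1, 6 and 7) above every non-metastatic one. COL6A1 differed by -0.11 (SE 0.65, adjusted p = 0.920), and COL6A6 was dim throughout.

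Among the other fibril-associated genes COL12A1, which binds type I fibrils, ran from 7.15 over 10.52 to 13.16 in metastatic and from 10.17 over 11.48 to 12.43 in non-metastatic tumors. The metastatic tumors spread more widely (SD 1.65 against 0.69), and the difference of -1.17 (SE 0.47, p = 0.0193) did not pass the adjustment (adjusted p = 0.0811). Leaving out each of the 27 tumors in turn gave -1.42 to -0.92, with an adjusted p of up to 0.129. Of these fits 1 passed, that without metastatic tumor 1, the highest of its group (-1.42, adjusted p = 0.0241). COL14A1, a further fibril-associated chain, differed by 0.14 (SE 0.44, adjusted p = 0.840) and COL21A1 by 0.78 (SE 0.56, adjusted p = 0.330), the latter with single tumors up to 10.07. COL19A1, COL20A1 and COL22A1 and the short-chain, transmembrane and remaining genes (COL8A2, COL13A1, COL23A1, COL25A1 and COL26A1) were dim. Of these dim genes COL13A1 alone passed 6, in 1 metastatic tumor.

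For 28 of the 33 genes the array holds several probe sets, and for 12 genes several lay above the median brightness. In 6 of these 12 the probe sets differed in sign. The 3 probe sets of COL1A1 agreed closely, at 1.11 to 1.13. Those of COL1A2 ranged from -1.34 to 0.57 and those of COL3A1 from -1.88 to 0.40, and in both genes the negative values came from probe sets with a mean log2 signal below 7, where the chosen ones had 13.55 and 13.70. The sign of COL1A2 and COL3A1 thus depends on the probe set read. The same holds for COL15A1 (-0.08 to 0.92), COL14A1 (-0.10 to 1.18), COL6A1 (-0.11 to 0.26) and COL4A1 (-0.225 to 0.03). None of these values was called. COL12A1 was negative in all 3 of its brighter probe sets, from -1.44 to -0.61.

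Across the tumors many collagen genes varied together. Among the 18 brighter genes 68 of 153 pairs correlated positively and 0 negatively at an adjusted permutation p under 0.05 for Pearson's r, and 56 of the 68 also passed for Spearman's rho. In 62 of the 68 r was positive within both groups. The pairs share their arrays and their genes, so they are not independent of each other. The share of correlated pairs among other genes of that brightness was not computed, so the count shows nothing particular to collagen genes. COL5A2 had the most such partners, 13, and COL27A1 had 0.

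The fibrillar genes formed the tightest group. COL1A2 and COL3A1 correlated with r = 0.955 (permutation p = 1e-05, the smallest these permutations can give, adjusted p = 8.50e-05 over 153 pairs) and rho = 0.944, and COL1A1 and COL1A2 with r = 0.878 and rho = 0.778 (both p = 1e-05), with r of 0.883 (metastatic) and 0.957 (non-metastatic) within the groups and 0.768 without the 2 tumors farthest from the COL1A1 median. Over the 6 brighter fibrillar genes the median r was 0.768. Without COL27A1, left out after its values were seen, it was 0.827, 0.888 within metastatic and 0.913 within non-metastatic tumors. Non-metastatic tumor 8 was the lowest and metastatic tumor 1 the highest of this block as a whole. COL15A1 followed it too, with r = 0.854 and rho = 0.857 to COL5A1.

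Type IV collagen split into separate units. COL4A1 and COL4A2, which lie next to each other in the RefSeq annotation (assembly UU_Cfam_GSD_1.0), correlated with r = 0.914 and rho = 0.904 (both p = 1e-05, adjusted 2.80e-05 and 4.67e-05), with 0.959 and 0.914 within the groups. COL4A5 and COL4A6, also neighbours, gave r = 0.244 (p = 0.217, adjusted 0.277) and rho = 0.272 (p = 0.172, adjusted 0.218). COL4A3 and COL4A4, neighbours as well, gave r = -0.138 (p = 0.518, adjusted 0.579), with COL4A4 dim in all tumors. COL4A6 was closest to COL16A1 among the collagens, with r = 0.575 (adjusted p = 0.00583) and rho = 0.621 (adjusted p = 0.00323). Within the groups r of this pair was 0.229 in metastatic and 0.699 in non-metastatic tumors.

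**Figure D3:**
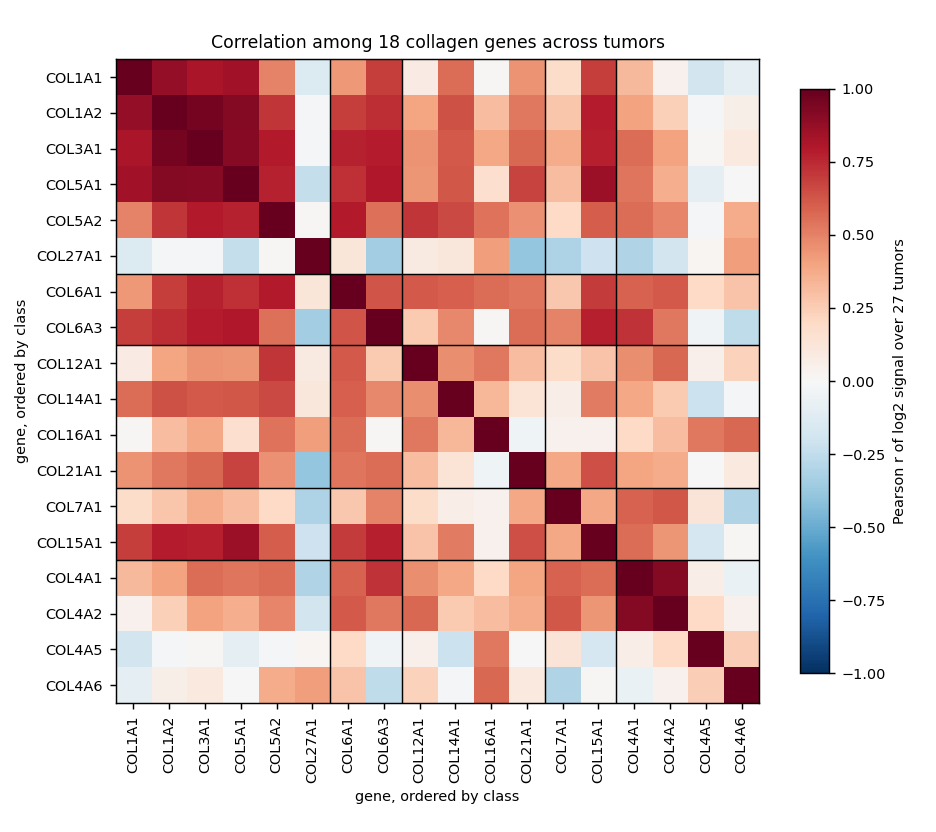
Pearson correlation of the log2 signals of the 18 brighter collagen genes across 27 tumors, ordered by class, with black lines between the fibrillar, beaded filament, fibril-associated, basement membrane zone and basement membrane genes. The fibrillar block without COL27A1 is dark red (median r 0.827), COL4A1 and COL4A2 form a pair (0.914), and COL4A5, COL4A6 and COL27A1 stand apart.

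Between the classes the relation was looser. COL1A1 and COL4A1 correlated with r = 0.321 (p = 0.102, adjusted 0.143) and rho = 0.435 (p = 0.0244, adjusted 0.0427). Within metastatic tumors r was 0.830 and within non-metastatic tumors 0.0779, but permuting the group labels over values centred in each group gave p = 0.0499 for that difference, and 0.197 after adjustment over the 14 pairs tested, a test added after the values had been seen. In the non-metastatic group r was 0.576 without tumors 8 and 12, the lowest and the highest for COL1A1. Of the marker pairs COL1A1 with PDGFRB, a fibroblast and pericyte receptor, gave r = 0.332 (adjusted p = 0.143), rho = 0.352 (adjusted p = 0.102), and 0.707 against 0.00928 in the groups (adjusted p of the difference 0.197). COL4A1 with CDH5, the endothelial cadherin, gave r = 0.565 (adjusted p = 0.00310), rho = 0.414 (adjusted p = 0.0521), and 0.825 against 0.108 (adjusted p of the difference 0.0655). None of the 14 pairs differed between the groups after adjustment. COL4A1 with MYH11 gave r = 0.125 (adjusted p = 0.579).

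**Figure D4:**
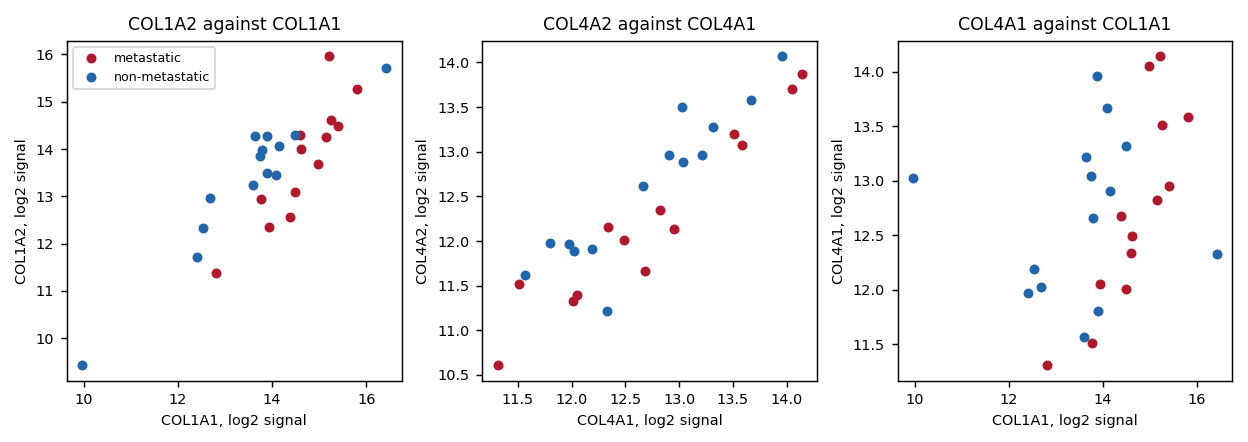
Log2 signals of COL1A2 against COL1A1, COL4A2 against COL4A1 and COL4A1 against COL1A1, 1 point per tumor, metastatic in red and non-metastatic in blue. The first panels follow a line (r = 0.878 and 0.914). In both, the gene on the horizontal axis minus its partner was on average higher in metastatic tumors (by 0.73 and 0.41). The group means of COL4A1 itself were nearly equal (12.73 and 12.69). The last shows non-metastatic tumor 8 far below the others along the COL1A1 axis and non-metastatic tumor 12 as the highest.

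Partner chains of the same collagen type were compared within each tumor, 7 pairs in all, a comparison added after the values had been seen. The difference of the log2 signals of 2 chains does not change when the same amount is added to both. It can change where 2 probe sets respond unequally to the brightness of an array or to a shared change of both chains, which was not tested. The probe sets of COL1A1, for example, had SDs of 1.28 to 2.22 across the tumors. COL1A1 minus COL1A2 averaged 0.88 ± 0.67 (SD, n = 13) with metastasis and 0.16 ± 0.43 (SD, n = 14) without, 0.73 higher in the former (2-sided permutation test, p = 0.00234, adjusted over the 7 pairs 0.00721). Metastatic tumor 1, at -0.75, was the only 1 of 13 below the median of the non-metastatic group.

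COL5A1 minus COL5A2, with the smallest p of the 7, differed by 1.26, with -1.48 ± 0.75 in metastatic and -2.74 ± 0.86 in non-metastatic tumors (permutation p = 0.000520, adjusted 0.00364), with 12 of 13 metastatic values past the median of the other group. COL4A1 minus COL4A2 was 0.41 higher in metastatic tumors, at 0.50 ± 0.28 against 0.09 ± 0.35 (p = 0.00309, adjusted 0.00721), again in 12 of 13. COL6A1 minus COL6A3 was 1.30 lower, at 0.81 ± 1.21 against 2.10 ± 1.42 (p = 0.0180, adjusted 0.0316), in 11 of 13. The 3 remaining pairs of type IV chains were not past the threshold (adjusted p of 0.123 to 0.185). Of the 8 chains in the 4 pairs past the threshold 0 passed alone in the test across 15115 genes (limma), where the adjustment covers far more tests, and COL1A1 had the only unadjusted p under 0.05.

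Over every combination of probe sets above the median brightness the sign held, in 12 of 12 combinations for type I (0.54 to 2.47), 4 of 4 for type V (0.95 to 1.68), 6 of 6 for COL4A1 and COL4A2 (0.11 to 0.41) and 2 of 2 for type VI. Leaving out each tumor gave 0.65 to 0.86 for type I, 1.13 to 1.39 for type V and 0.36 to 0.48 for COL4A1 and COL4A2, each past the threshold, and type VI passed in 20 of 27. It missed the threshold without metastatic tumor 10, 11 or 13 or non-metastatic tumor 1, 9, 11 or 13 (adjusted p of up to 0.0640, differences of -1.09 to -1.23). Without non-metastatic tumor 4 COL4A3 minus COL4A4 (1.13, adjusted p = 0.0431) and COL4A3 minus COL4A5 (1.48, adjusted p = 0.0414) passed. The groups also differed in the GAPDH control, whose 3′ minus 5′ signal reflects how complete the RNA copies are, at 1.84 ± 0.32 (metastatic) and 1.32 ± 0.42 (non-metastatic). With this control as a covariate the type I difference was 0.32 (adjusted p = 0.192), that of COL4A1 and COL4A2 0.18 (0.192) and that of type VI -1.34 (0.168), while type V stayed at 1.66 (0.00133). With the smooth muscle marker mean as a covariate the values were 0.31 (adjusted p = 0.462) for type I and 0.84 (0.375) for type V, that of COL4A1 and COL4A2 turned to -0.0075 (0.950), and type VI was at -0.42 (0.623). Blocking on whether the sample name ends in T ended all 4 calls and turned type I to -0.38 (adjusted p = 0.503), with 1.72 (0.0738) for type V, 0.14 (0.512) for COL4A1 and COL4A2 and -0.93 (0.512) for type VI. The probe sets of partner genes were not compared for level, and no such balance was computed for other gene pairs.

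**Figure D5:**
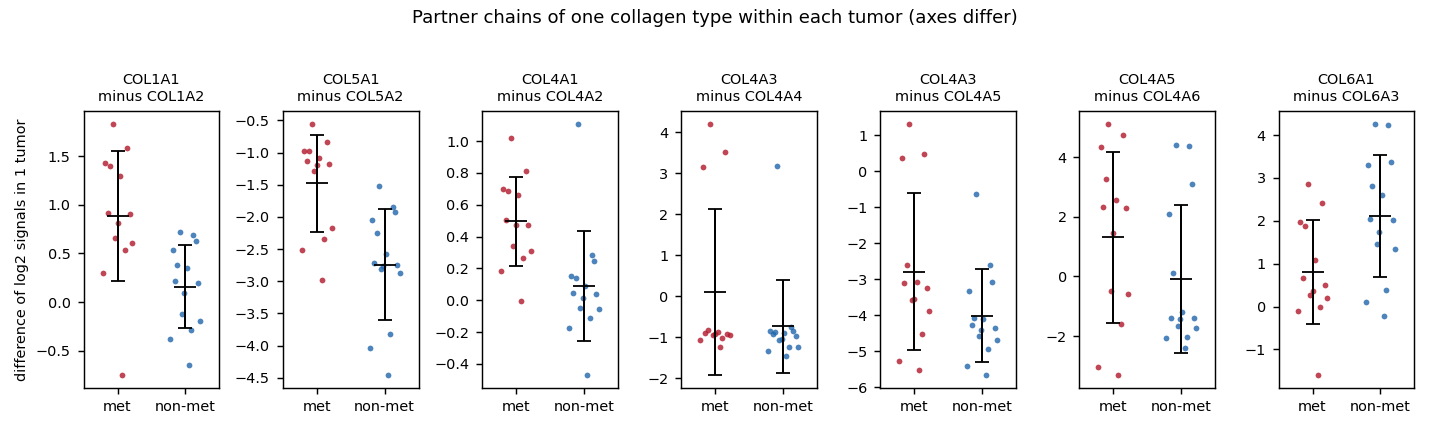
Difference of the log2 signals of 2 partner chains within each tumor, for 7 pairs, in metastatic (met, red) and non-metastatic (non-met, blue) tumors, 1 point per tumor, with the mean and SD as bars and axes that differ between panels. COL1A1 minus COL1A2, COL5A1 minus COL5A2 and COL4A1 minus COL4A2 are higher in metastatic tumors (by 0.73, 1.26 and 0.41), and COL6A1 minus COL6A3 is lower.

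Grade, tumor size and age of the dog were each fitted beside lymph node status. For grade III against grade II 0 of the 33 genes were called, as were 0% of all genes (limma). At an unadjusted p under 0.05 there were 2 collagen genes, both dim, and 5.85% of all genes. For tumor size 0 were called and 0% of all genes, with 6 dim collagen genes and 7.75% of all genes at an unadjusted p under 0.05. The slopes on size were nonetheless of a single sign, positive in 31 of 33 genes and in 18 of 18 brighter ones, where 44.7% of all genes of that brightness had a positive slope. The median slope of the 18 was 0.36 log2 units per doubling of the diameter against -0.02 for all genes of that brightness. It ran from 0.06 for COL27A1 to 0.59 for COL6A3 (SE 0.34, adjusted p = 0.665), with 0.34 for COL4A1 (SE 0.17, adjusted p = 0.639) and 0.37 for COL1A1 (SE 0.25, adjusted p = 0.688). Because these genes vary together, 18 slopes of 1 sign do not count as 18 observations.

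For age 0 of 33 genes were called against 0.0595% of all genes (limma). The type VI chains COL6A1 (0.32 per year, SE 0.14, p = 0.0338) and COL6A3 (0.29 per year, SE 0.14, p = 0.0420) had an unadjusted p under 0.05, as did 8.40% of all genes. Slopes on age were positive in 15 of the 18 brighter genes, which again vary together, with a median of 0.15 per year, where 45.6% of all genes of that brightness had a positive slope. COL4A6 was the most negative at -0.37 per year (SE 0.23, adjusted p = 0.744). For the interaction of lymph node status and grade 0 were called and 0% of all genes (limma). Of the collagen genes COL27A1 alone had an unadjusted p under 0.05 (4.42, SE 2.04, p = 0.0406), against 2.66% of all genes. With the values quantile-normalized again 1 collagen gene was under this limit. With the grades of the study's table, which differ for 1 tumor, or the mean of the probe sets of a gene, 0 were.

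Of 25 measured genes of collagen folding and processing 4 rose in metastatic tumors and 0 fell, a share near the 17.8% called among all genes. P4HA3 and P4HA1, catalytic subunits of prolyl 4-hydroxylase, were higher by 2.43 (SE 0.37, adjusted p = 0.000306) and 1.16 (SE 0.31, adjusted p = 0.0124). COLGALT1, which glycosylates collagen hydroxylysine, was higher by 1.45 (SE 0.36, adjusted p = 0.00737), and LOXL2, a cross-linking enzyme named after its value was seen, by 1.26 (SE 0.42, adjusted p = 0.0363). The median over the 25 genes was 0.27.

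Of 9 collagen receptors 0 passed (limma), with DDR2, a receptor kinase for fibrillar collagen, nearest at -1.64 (adjusted p = 0.0537). Of 9 fibril-binding proteoglycans 1 rose, ASPN (asporin), by 3.25 (SE 0.73, adjusted p = 0.00412). EPYC (epiphycan) had -0.72 (adjusted p = 0.135) and DCN (decorin) 1.15 (adjusted p = 0.144). Of 12 basement membrane partners 1 fell, LAMB2, a laminin β chain, by 1.26 on the log2 scale (SE 0.38, adjusted p = 0.0224), while LAMA3 had -1.83 (adjusted p = 0.113) and LAMA1 -2.62 (adjusted p = 0.152). The list medians were -0.02, 0.04 and -0.45 beside -0.002 for all genes.

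Of 10 fibroblast markers 0 passed (limma), with a median of 1.02 and a mean log2 signal of 7.45 to 11.77 in metastatic and 5.95 to 10.11 in non-metastatic tumors. FBLN2 (1.04, adjusted p = 0.0502), PDGFRA (1.72, adjusted p = 0.0570) and PDPN (1.62, adjusted p = 0.0794) were nearest. With their mean as a covariate the collagen genes called were COL16A1 (-2.26, adjusted p = 0.00238), COL12A1 (-1.82, adjusted p = 0.00946) and COL5A2 (-1.23, adjusted p = 0.0225), each lower in metastatic tumors. Of 12 endothelium markers PECAM1 rose by 1.00 and TEK fell by 1.02, and of 8 basal epithelium markers KRT17 fell by 2.88 (list median -0.63). Of 9 luminal markers GATA3 fell by 2.92 and FOXA1 by 2.36, while the list median was 0.18 and EPCAM, the next by p, had 0.46 (adjusted p = 0.202). Macrophage and adipocyte markers had 0 of 9 and 0 of 8 past the threshold (limma). What part these cells have in the collagen values was not tested further.

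Of the 3 chains left out by the rule, COL2A1 and COL10A1 were lower in metastatic tumors and COL9A1 was not called. COL2A1, the main cartilage collagen, was 3.34 ± 2.17 in metastatic and 7.26 ± 2.83 in non-metastatic tumors, a difference of -3.93 (SE 0.96, adjusted p = 0.00676). COL10A1, of hypertrophic cartilage, differed by -1.28 (SE 0.31, adjusted p = 0.00604) and COL9A1 by -1.29 (SE 1.05, adjusted p = 0.392). COMP, a further cartilage matrix gene, rose by 2.10 (adjusted p = 0.0486), so that of 11 cartilage markers 1 was higher and 2 lower.

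The genes most like 3 chosen collagens were taken by the highest Pearson r across the 27 tumors, outside the collagen family and with no test. Next to COL1A1 stood SVEP1 (r = 0.861), SFRP2 (0.849), SERPINF1 (0.848), ELK3 (0.831) and PPP2R1B (0.830), the last with 0.452 within metastatic tumors. Next to COL4A1 stood LAMC1 (0.872), RCN3 (0.770), PDGFRB (0.765), HSPG2 (0.746) and SERPINH1 (0.740). LAMC1 and HSPG2 encode a laminin chain and perlecan, both basement membrane components, and SERPINH1 encodes the collagen chaperone. Next to COL16A1 stood PHKG1 (0.883), NPR2 (0.812), C5H11orf53 (0.791), CYP27A1 (0.783) and WWP2 (0.783), none of them in a list used here.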

How the data were processed

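The authors measured RNA of 27 tumors on the Affymetrix Canine Genome 2.0 array and processed the scans in Partek with gcRMA (RMA background correction, quantile normalization, median polish). The deposited values are log2 signals, used as they stand. From 43035 probe sets 175 controls were left out. Of the 42860 tested 29254 name 1 gene, 439 several and 13167 none on the platform annotation, and 32 of the 33 members matched the RefSeq table (UU_Cfam_GSD_1.0), used only for gene order. All probe sets were fitted with limma 3.58.1 in R 4.3.3, and p-values of 15115 genes were adjusted together. The limma comparison of metastatic and non-metastatic tumors was tested on simulated data, and the permutation tests were not. Correlations and chain differences used 100000 permutations (numpy 2.4.6, scipy 1.17.1), those with a covariate by permuting residuals, and plots matplotlib 3.10.9. Members, lists and tests were chosen with earlier results of these data known. Every member may be named. Values by tumor are given for called members and COL1A1, COL1A2, COL3A1, COL4A1, COL4A2 and COL6A3, for further members singled out after their values were seen, and in each list up to 3 genes of smallest p are named. Groups come from the lymph node entry of the labels. The grade of 1 non-metastatic tumor differs between the label, used here, and the table of the study, tried as an alternative. Other alternatives covered scaling, probe set choice, covariates and single tumors. Partner genes without a probe set named for them, such as COL6A2, were not analysed here, nor was survival.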

Additional observations from a re-analysis of the deposited data

How the results depend on the processing

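The call of COL16A1 held in 15 of 18 alternatives and in all 27 fits without a tumor, from -2.26 to -0.61 on the log2 scale over the former. It was lost with tumor size, the smooth muscle marker mean or the ending of the sample name in the model. The number of collagen genes called was 1, and became 4 with array weights, 3 with the probe set of largest fold, with the upper quartile as a covariate or with the fibroblast marker mean as a covariate, 2 with the mean of the probe sets of a gene, and 0 with tumor size, with the smooth muscle marker mean, with the ending of the sample name or when the limits were an adjusted p of 0.001 with 1.7-fold. Without single tumors it was 1 to 2. Genes added were COL1A1, COL4A5 and COL4A6 (array weights), COL4A6 and COL27A1 (upper quartile), COL12A1 and COL5A2 (fibroblast mean), COL12A1 and COL6A6 (largest fold) and COL25A1 (mean of probe sets). The causes were not tested. Over all genes, calls fell from 2694 to 478 with size, 229 with the smooth muscle mean, 798 with the upper quartile, 835 with the GAPDH control and 10 with the name ending. Differences below the threshold in both fits changed sign 95 times, in 22 genes. For grade, size, age and the interaction 0 collagen genes were called in each alternative run (limma).

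The alternatives for the chain differences, and those for the closely correlated arrays, were chosen after seeing the data. The number of pairs past the threshold was 4, and became 5 with the upper quartile (COL4A5 minus COL4A6 added, 3.34, adjusted p = 0.0165), 3 with the fibroblast mean (COL6A1 minus COL6A3 lost, adjusted p = 0.0557), 2 with the mean of the probe sets of a gene, 1 with the GAPDH control and 0 with the smooth muscle mean or the name ending, and 3 to 6 without single tumors. The direction turned for COL1A1 minus COL1A2 with the name ending (-0.38) and for COL4A1 minus COL4A2 with the smooth muscle mean (-0.0075). The causes were not tested. The design holds no pairs, since the study lists every tumor under a dog of its own, in 1 group only. The 13 and 14 arrays limit the precision, as the 95% intervals show.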
